A study of Homo sapiens with 8 samples.

Results

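The epithelial-mesenchymal transition genes examined here were 8 protein-coding genes of 19881 in the annotation: the transcriptional repressors and activators SNAI1, SNAI2, ZEB1, ZEB2 and TWIST1, the cadherins CDH1 and CDH2, and the filament gene VIM. A peak was assigned to one of them when its summit, the position of highest signal within the peak, lay in the gene body or at most 50 kb from any transcriptional start site (TSS) in the annotation. By this rule 227 of the 223511 peaks in 4 lists were assigned to the 8 genes. The rule that assigned peaks used their positions and no measured level. The 8 genes themselves were chosen with earlier results of these data known, so comparisons with all protein-coding genes only describe them.

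The peaks came from ChIP-Seq in PC-3, an established human prostate cancer cell line. Endogenous HoxC5 was precipitated with an anti-HoxC5 antibody from unmodified control cells in 2 libraries, replicates 1 and 2. The same antibody was used on PC-3 cells made to overexpress Flag-tagged HoxC5 from a lentivirus, in 1 library, and an anti-PBX4 antibody on PC-3 cells that overexpressed Flag-tagged Pbx4 in the same way, in 1 library. Input chromatin was sequenced in 4 further libraries, which are not used here. In the cells that overexpressed HoxC5, the antibody does not separate the tagged protein from that of the cell's own gene. Labels give neither the number of clones in an overexpressing line nor whether the endogenous replicates came from separate cultures. With 1 library per overexpressed condition, no difference between conditions was tested, and every comparison below describes these libraries.

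In an epithelial-mesenchymal transition, epithelial cells give up their cell-cell junctions and take on the shape and motility of mesenchymal cells. Proteins of the Snail, ZEB and Twist families drive the change. The Snail and ZEB proteins bind the E-box word CAGGTG and repress CDH1, which encodes E-cadherin, the adhesion protein of epithelial junctions, while N-cadherin (CDH2) and vimentin (VIM) mark the mesenchymal state. HoxC5 is a homeodomain protein, and Pbx4 belongs to the TALE class of homeodomain proteins, which bind DNA together with Hox proteins.

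A few reference sequences of the sites that the results turn on are given first, all from the GRCh37 (hg19) genome, plus strand, 5′ to 3′, and not from the reads. Capitals mark words searched for on both strands: the AP-1 word TGAGTCA, whose complement reads TGACTCA, the E-box CAGGTG, the Meis word TGACAG and the Hox word TAATGA. The Hox word TAATTA and the joint Hox and Pbx words TGATTGAT and TGATTAAT were also sought. Matches may share letters, as the AP-1 and TAATGA words do at SNAI1 and the AP-1 and E-box words do at TWIST1. A match describes the letters of the window and is not a measured binding site. The first 4 sequences show a stretch inside both endogenous VIM peaks (chr10:17270514-17270542) and the windows reaching 50 bp to either side of HoxC5 summits upstream of the ZEB1 TSS (chr10:31607313-31607413) and at 2 positions upstream of the CDH2 TSS (chr18:25758368-25758468 and chr18:25758830-25758930), where HoxC5 and Pbx4 peaks met.
VIM endogenous site: gcagggcgcggTGAGTCAccgccggtgac
ZEB1 upstream: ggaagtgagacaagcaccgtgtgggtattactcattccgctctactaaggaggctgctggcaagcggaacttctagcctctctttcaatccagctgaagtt
CDH2 upstream, nearer: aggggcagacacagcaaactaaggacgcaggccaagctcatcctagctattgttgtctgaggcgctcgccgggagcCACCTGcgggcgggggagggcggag
CDH2 upstream, farther: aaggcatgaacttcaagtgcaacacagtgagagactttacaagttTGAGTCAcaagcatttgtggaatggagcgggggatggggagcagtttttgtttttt

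The other 6 sequences are windows of the same length around the summit of highest fold enrichment that an overexpressed list held at a gene, and show how differently such summits read. They were chosen after the values were seen: HoxC5 at SNAI1 (chr20:48567808-48567908), Pbx4 at ZEB1 (chr10:31679917-31680017), HoxC5 at ZEB2 (chr2:145115653-145115753), Pbx4 at TWIST1 (chr7:19140314-19140414), and both proteins at CDH1 (HoxC5 chr16:68776735-68776835, Pbx4 chr16:68790322-68790422). The SNAI1 window held 2 AP-1 and 2 TAATGA words, run together in pairs, and the HoxC5 window of CDH1 held none of the words.
SNAI1, HoxC5: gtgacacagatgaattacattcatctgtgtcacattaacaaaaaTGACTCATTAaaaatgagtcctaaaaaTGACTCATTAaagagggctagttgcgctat
ZEB1, Pbx4: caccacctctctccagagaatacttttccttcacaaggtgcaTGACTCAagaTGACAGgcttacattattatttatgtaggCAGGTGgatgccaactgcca
ZEB2, HoxC5: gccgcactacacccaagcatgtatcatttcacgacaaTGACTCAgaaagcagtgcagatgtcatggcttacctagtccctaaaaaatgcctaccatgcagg
TWIST1, Pbx4: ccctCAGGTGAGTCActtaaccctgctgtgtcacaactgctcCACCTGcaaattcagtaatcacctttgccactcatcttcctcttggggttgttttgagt
CDH1, HoxC5: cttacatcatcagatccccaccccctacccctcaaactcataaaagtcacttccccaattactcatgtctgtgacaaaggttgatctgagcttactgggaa
CDH1, Pbx4: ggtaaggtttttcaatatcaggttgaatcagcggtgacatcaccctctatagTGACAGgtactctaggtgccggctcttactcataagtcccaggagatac

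The lists differed in length, with 2525 and 170 peaks for endogenous replicates 1 and 2, 67196 for overexpressed HoxC5 and 153620 for Pbx4. They also ended at different q-values (the highest was 0.0398, 0.0499, 0.00997 and 0.0490, in the same order), and the depth of each library is unknown because the lists carry no read totals. A count in one list is therefore read against the other genes of that list, not against another list. Fold enrichment is the authors' ratio of signal to local background at the summit. The lists hold no expression values, so the cell type could not be checked against its marker genes, and whether any of these genes was active in the cells was not measured.

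HoxC5 and Pbx4 peaks of the overexpressing cells were found at all 8 genes, while endogenous HoxC5 peaks were found at SNAI2 and VIM alone. Endogenous replicate 1 had 2 peaks, 1 at SNAI2 and 1 at VIM, where 17.3% of all protein-coding genes had a peak by the same rule. Endogenous replicate 2 had 1 peak, at VIM, and 1.48% of all protein-coding genes had one. No endogenous peak lay at SNAI1, ZEB1, ZEB2, TWIST1, CDH1 or CDH2 in either replicate.

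The overexpressed HoxC5 list had 69 peaks at the 8 genes, 0.103% of the list, and the Pbx4 list had 155, 0.101% of the list. A peak at all 8 genes is close to what the lists gave in general, since 88.4% of all protein-coding genes had an overexpressed HoxC5 peak and 93.5% had a Pbx4 peak. The number of peaks per gene lay higher. The 8 genes had a median of 8.5 HoxC5 peaks, against 4 over all protein-coding genes, and a median of 17.5 Pbx4 peaks, against 8. The stretch assigned to a gene also varied, from 100 kb at SNAI1 and SNAI2 to 312 kb at CDH2. Over the 1436 kb of the 8 genes together there were 4.81 HoxC5 peaks and 10.8 Pbx4 peaks per 100 kb, against 2.92 and 6.30 over the stretches of all protein-coding genes.

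HoxC5 peaks lay at the promoters of 7 of the 8 genes, all but CDH1, and Pbx4 peaks at the promoters of 3. Promoter here means a summit within 1 kb of the TSS of the canonical transcript, the one transcript that the annotation marks for each gene. Over all protein-coding genes, 49.4% had an overexpressed HoxC5 peak there and 28.1% a Pbx4 peak. Both proteins had a promoter peak at SNAI2, ZEB1 and ZEB2, 3 of the 8 genes, against 22.8% of all protein-coding genes. VIM alone had an endogenous promoter peak, in each replicate, where 2.56% (replicate 1) and 0.161% (replicate 2) of all protein-coding genes had one.

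The promoter count of Pbx4 depended on which start sites were taken. With every annotated TSS in place of the canonical one, 7 of the 8 genes had a Pbx4 peak within 1 kb, all but SNAI1, against 42.4% of all protein-coding genes. For overexpressed HoxC5 the 7 genes were the same, against 55.6%, and for the endogenous replicates it was VIM again, against 3.42% and 0.206%. ZEB2, with 46 annotated start sites, and ZEB1, with 21, have more positions at which a peak can count than SNAI1, with 1.

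**Figure D1:**
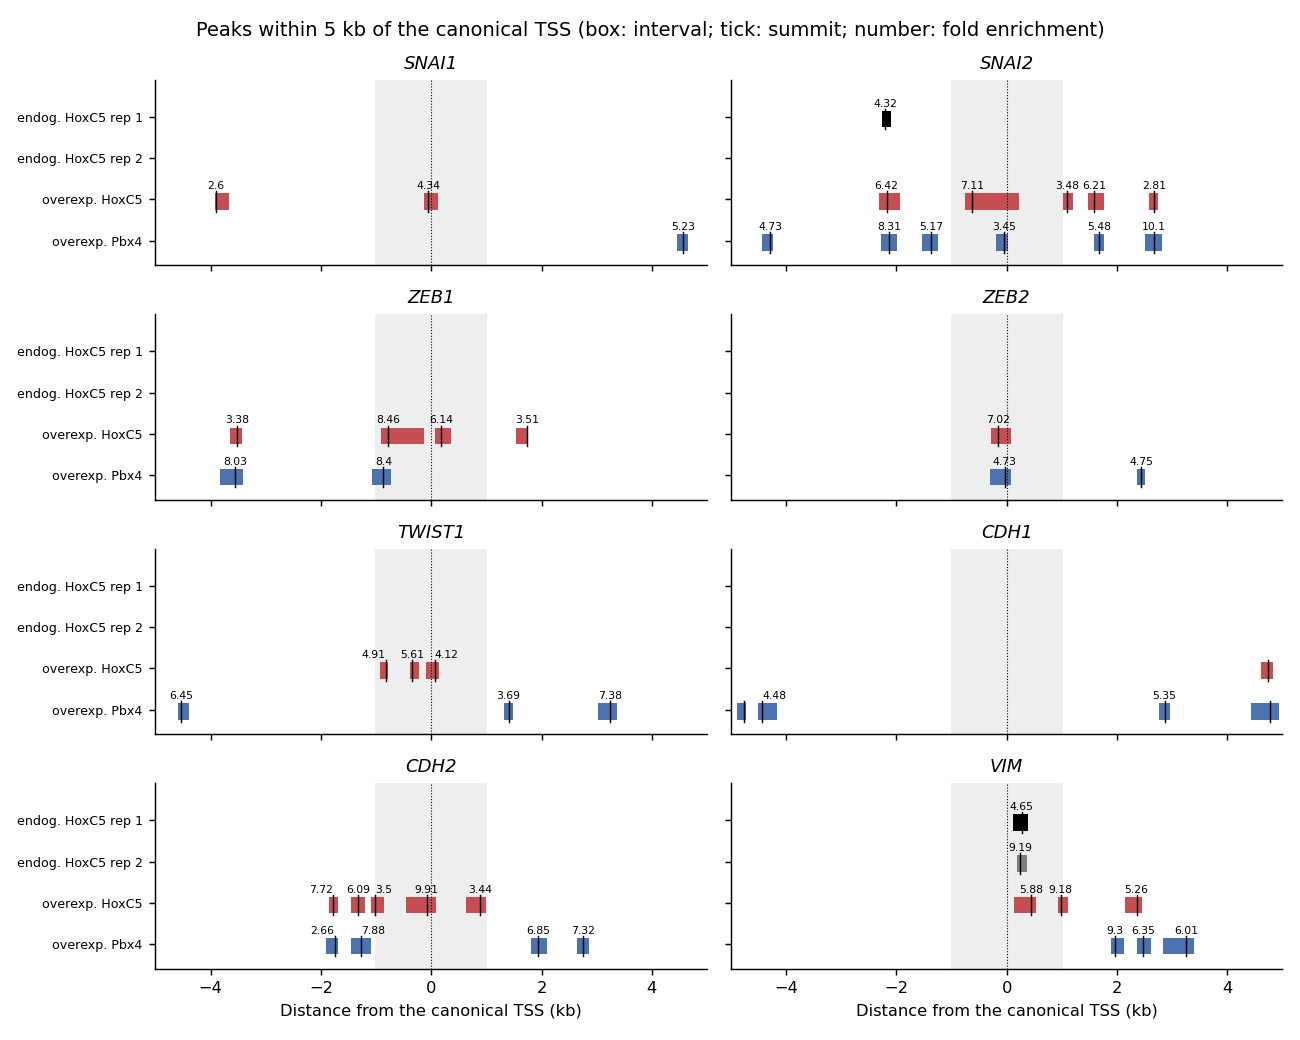
Peaks within 5 kb of the canonical TSS of each gene, with the distance in kb along the axis and 1 line per list; boxes span the peak, ticks mark the summit, numbers give the fold enrichment and the grey band is 1 kb on either side. Endogenous peaks appear only at SNAI2 and VIM, TWIST1 shows 3 HoxC5 peaks and no Pbx4 peak in the band, and the band of CDH1 is empty.

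SNAI1, which encodes Snail, is a gene of 5.91 kb on chromosome 20 (48599517 to 48605423, plus strand, ENSG00000124216) with a single annotated start site. It had 12 overexpressed HoxC5 peaks and 14 Pbx4 peaks, and 90.4% and 76.3% of protein-coding genes had fewer. At 12.0 HoxC5 peaks per 100 kb, SNAI1 had the highest density of the 8, and 97.4% of protein-coding genes had a lower one. All 12 HoxC5 peaks lay outside the gene body, and 1 Pbx4 peak lay in it, in intron 2.

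The HoxC5 peak at the SNAI1 promoter had its summit 56 bp upstream of the TSS and a fold enrichment of 4.34. No Pbx4 peak met it, and the nearest Pbx4 summit lay 4566 bp downstream, with a fold enrichment of 5.23. The strongest HoxC5 peak by fold enrichment, 11.4, lay 31.7 kb upstream, inside the neighbouring gene RNF114, and a Pbx4 peak of fold enrichment 14.6 overlapped it. This is the window printed above with the repeated AP-1 and TAATGA words. The strongest Pbx4 peak, of fold enrichment 15.3, lay 20.4 kb downstream and met no HoxC5 peak. Of the 12 HoxC5 peaks of SNAI1, 8 had the SNAI1 TSS as the nearest start site of a protein-coding gene, as did 11 of the 14 Pbx4 peaks. The others were nearer to RNF114.

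SNAI2, which encodes Slug, lies on chromosome 8 (49830157 to 49834299, minus strand, ENSG00000019549). Among the 5 transcription factors of the 8 genes it was the only one with an endogenous HoxC5 peak. That peak, in replicate 1, spanned 49836082 to 49836243, with its summit at 49836193, 2205 bp upstream of the canonical TSS. It had a fold enrichment of 4.32 and a −log10 q of 4.39, rank 1424 of the 2525 peaks of the list. Replicate 2 had no peak at SNAI2. Both overexpressed lists had a peak over the same position, with a fold enrichment of 6.42 for HoxC5 and 8.31 for Pbx4, so that SNAI2 had the only site at the 8 genes found in the endogenous, the overexpressed HoxC5 and the Pbx4 lists. The window within 50 bp of the endogenous summit held an AP-1 word and an E-box. Of all replicate 1 summits over 1 kb from a canonical TSS, 19.0% held the AP-1 word and 20.2% the E-box.

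In all, SNAI2 had 10 overexpressed HoxC5 peaks and 16 Pbx4 peaks, 9.97 and 16.0 per 100 kb, and 94.5% and 95.4% of protein-coding genes had a lower density. The promoter carried a HoxC5 peak 633 bp upstream of the TSS, with a fold enrichment of 7.11 and the longest interval of any HoxC5 peak at the 8 genes, 980 bp. A Pbx4 peak of fold enrichment 3.45, 53 bp upstream, overlapped that interval. The HoxC5 peak at the promoter was also the strongest of the gene, and the strongest Pbx4 peak, 10.1, lay 2665 bp downstream in exon 3. All peaks in the SNAI2 stretch were nearest to SNAI2 itself. A HoxC5 summit 49988 bp downstream fell just inside the 50 kb limit.

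ZEB1, a zinc finger and homeodomain repressor of CDH1, spans 211 kb of chromosome 10 (31607424 to 31818742, plus strand, ENSG00000148516). It had 7 HoxC5 and 10 Pbx4 peaks in the overexpressed lists. At 2.68 and 3.83 per 100 kb, the HoxC5 density lay above that of 41.2% of protein-coding genes and the Pbx4 density above that of 30.5%, so ZEB1 did not share the dense peaks of the Snail genes. All peaks inside the gene lay in intron 1, and none lay past 83.5 kb from the TSS.

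A pair of HoxC5 peaks lay at the ZEB1 promoter. The first, 782 bp upstream of the canonical TSS, had a fold enrichment of 8.46 and was met by a Pbx4 peak 867 bp upstream with a fold enrichment of 8.40. The second, 184 bp downstream, had a fold enrichment of 6.14 and no Pbx4 partner. The window of the first HoxC5 summit held none of the words, while that of the overlapping Pbx4 summit held a Meis word and an E-box. The coordinates of the HoxC5 window also fall in ZEB1-AS1, the antisense gene that starts beside ZEB1.

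Away from the promoter, the strongest HoxC5 peak of ZEB1, 9.44, lay 34.6 kb into the gene and was met by a Pbx4 peak of fold enrichment 6.99. The strongest Pbx4 peak, 17.0, lay 71.8 kb into the gene, over a HoxC5 peak of fold enrichment 3.83. Its window held an AP-1 word, a Meis word 2 bp from the summit and an E-box.

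ZEB2, the paralogue of ZEB1, spans 157 kb of chromosome 2 (145121931 to 145278624, minus strand, ENSG00000169554). It had 6 HoxC5 peaks and 27 Pbx4 peaks in the overexpressed lists. The ratio of 4.50 compares with 2.29 for the lists as a whole and with 1.17 at SNAI1. With the canonical transcript and 50 kb around its TSS alone, ZEB2 had 4 HoxC5 and 17 Pbx4 peaks. Fewer peaks than the 27 of Pbx4 were found at 94.7% of protein-coding genes, and fewer than the 6 of HoxC5 at 60.4%. All 6 HoxC5 peaks were met by a Pbx4 peak, which left 21 Pbx4 peaks without HoxC5.

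At the ZEB2 promoter, a HoxC5 peak 149 bp upstream of the canonical TSS, of fold enrichment 7.02, overlapped a Pbx4 peak 32 bp upstream, of fold enrichment 4.73. The strongest HoxC5 peak, 13.0, lay 162 kb downstream, past the end of the gene, and was nearer to the start of GTDC1. A Pbx4 peak of fold enrichment 7.41 overlapped it. The strongest Pbx4 peak, 10.2, lay 33.4 kb upstream within the non-coding gene LINC01412 and met a HoxC5 peak of fold enrichment 6.61. Only 3 of the 6 HoxC5 peaks and 13 of the 27 Pbx4 peaks had ZEB2 as the nearest protein-coding gene, by start site.

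TWIST1, a basic helix-loop-helix factor, lies on chromosome 7 (minus strand, ENSG00000122691). Its canonical transcript is 2.17 kb long, but the annotation also holds a long transcript that extends the gene to 96.6 kb (19060614 to 19157259), and peaks along it count as lying in the gene body. It had 6 HoxC5 and 19 Pbx4 peaks in the overexpressed lists, and 60.4% and 87.9% of protein-coding genes had fewer. By density, 61.2% of protein-coding genes lay lower for HoxC5 and 89.3% for Pbx4. All 6 HoxC5 peaks and 16 of the 19 Pbx4 peaks had TWIST1 as the nearest protein-coding gene, by start site. With the canonical transcript and 50 kb around its TSS alone, 11 Pbx4 peaks were counted.

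The TWIST1 promoter held 3 HoxC5 peaks, more than any other of the 8. Their summits lay 63 bp downstream, in exon 1, and 346 bp and 826 bp upstream of the TSS, with fold enrichments of 4.12, 5.61 and 4.91. None was met by a Pbx4 peak, and the nearest Pbx4 summit lay 1404 bp downstream. The other 3 HoxC5 peaks, between 16.9 kb and 90.6 kb downstream, were each met by Pbx4. Among them was the strongest, of fold enrichment 8.93, 56.5 kb downstream and so outside the canonical transcript and 50 kb around its TSS. The strongest Pbx4 peak, 12.7, lay 16.9 kb downstream over a HoxC5 peak of fold enrichment 4.72, at the window printed above with the E-box that runs into the AP-1 word.

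CDH1 encodes E-cadherin, the target that the repressors above share. The gene spans 98.2 kb of chromosome 16 (68771195 to 68869440, plus strand, ENSG00000039068). It was the only gene of the 8 with no peak of any list within 1 kb of its canonical TSS. It had 6 HoxC5 and 19 Pbx4 peaks, and 60.4% and 87.9% of protein-coding genes had fewer. The nearest HoxC5 summit lay 4733 bp downstream and the nearest Pbx4 summit 2864 bp downstream, both in intron 2.

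Intron 2 of CDH1 held 4 HoxC5 peaks and 15 Pbx4 peaks, and all 4 HoxC5 peaks were met by Pbx4. The strongest HoxC5 peak, 13.0, lay 5590 bp downstream of the TSS over a Pbx4 peak of fold enrichment 7.22, and 2 further shared sites lay beside it, at 4733 bp and 7668 bp. The strongest Pbx4 peak, 15.0, lay 19.2 kb downstream with no HoxC5 peak, and its window held a Meis word 2 bp from the summit. The only Pbx4 summit within 1 kb of any annotated CDH1 start site lay 65.2 kb into the gene, in intron 3, with a fold enrichment of 6.75. Beyond the 3′ end, 2 HoxC5 peaks at 106 kb and 110 kb had no Pbx4 partner and were nearer to the start of TANGO6. In all, 3 of the 6 HoxC5 peaks and 15 of the 19 Pbx4 peaks had CDH1 as the nearest protein-coding gene, by start site.

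CDH2 encodes N-cadherin and spans 245 kb of chromosome 18 (25512843 to 25757910, minus strand, ENSG00000170558). It had 12 HoxC5 peaks and 37 Pbx4 peaks, the largest Pbx4 count of the 8, and 90.4% and 97.7% of protein-coding genes had fewer. Per 100 kb the counts were 3.84 and 11.9, above those of 56.3% and 85.8% of protein-coding genes, so that CDH2 ranked lower by density than by count. All peaks in the CDH2 stretch were nearest to CDH2.

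Upstream of CDH2, HoxC5 peaks stood in a row. The summit 82 bp upstream of the canonical TSS had a fold enrichment of 9.91, the highest at any of the 8 promoters, and met no Pbx4 peak. A peak 879 bp downstream had 3.44 and one 1020 bp upstream 3.50, both without Pbx4. Next came 2 shared sites, with HoxC5 summits 1324 bp and 1786 bp upstream, of fold enrichment 6.09 and 7.72, and Pbx4 summits 1280 bp and 1750 bp upstream, of fold enrichment 7.88 and 2.66. The nearer window held an E-box 26 bp from the HoxC5 summit and the farther an AP-1 word 5 bp from it, as printed above.

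Within the gene, the strongest Pbx4 peak of all 8 genes, 17.9, lay 157 kb downstream of the TSS in intron 2, over a HoxC5 peak of fold enrichment 6.61. The strongest HoxC5 peak, 10.3, lay 180 kb downstream in intron 7, over a Pbx4 peak of fold enrichment 6.25. The farthest site, 255 kb downstream of the canonical TSS and past the end of the gene, was shared as well. Its fold enrichment was 8.89 for HoxC5 and 7.35 for Pbx4.

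VIM encodes vimentin, the intermediate filament protein of mesenchymal cells, on chromosome 10 (17270240 to 17279592, plus strand, ENSG00000026025). It was the only gene of the 8 with a HoxC5 peak in both endogenous replicates. In replicate 1 the peak spanned 17270359 to 17270632 with its summit at 17270511, 271 bp downstream of the canonical TSS. It had a fold enrichment of 4.65 and a −log10 q of 5.25, rank 1115 of 2525. In replicate 2 the peak spanned 17270435 to 17270602 with its summit at 17270485, 245 bp downstream, a fold enrichment of 9.19 and a −log10 q of 9.52, rank 41 of 170.

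Both summits fall in exon 1 of VIM, in the 5′ untranslated region, and also within the antisense gene VIM-AS1. A further annotated VIM start site lies 3 bp downstream of the summit of replicate 1 and 29 bp downstream of that of replicate 2. The overexpressed HoxC5 list had a peak over them, from 17270372 to 17270768, with a fold enrichment of 5.88 and its summit 441 bp downstream of the TSS, in intron 1. No Pbx4 peak overlapped, and the nearest Pbx4 summit lay 1971 bp downstream. The 3 HoxC5 peaks thus share an interval that includes the AP-1 word from 17270525 to 17270531. The word lies 14 bp from the summit of replicate 1 and 40 bp from that of replicate 2. No AP-1 word lay within 50 bp of the overexpressed HoxC5 summit. Such a word was found at 2.19% of the replicate 1 summits within 1 kb of a canonical TSS and at 19.0% of those farther away. For replicate 2 it was found at 2 of 31 (6.45%), VIM among them, and at 15.8% of those farther away.

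In the overexpressed lists VIM had 10 HoxC5 and 13 Pbx4 peaks, 9.53 and 12.4 per 100 kb, above the densities of 93.6% and 87.9% of protein-coding genes. Of these peaks, 7 of HoxC5 and 8 of Pbx4 had VIM as the nearest protein-coding gene, by start site. A second HoxC5 peak at the promoter, 979 bp downstream of the TSS, had a fold enrichment of 9.18 and no Pbx4 partner. The strongest HoxC5 peaks lay upstream, 12.9 at 11.8 kb, in VIM-AS1, and 12.3 at 21.7 kb. The latter coincided with the strongest Pbx4 peak, 13.2, and was nearer to the start of TRDMT1 than to that of VIM.

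Merged by overlap of at least 1 bp, the 227 peaks formed 179 sites. Pbx4 alone accounted for 111 of them, overexpressed HoxC5 with Pbx4 for 43, and overexpressed HoxC5 alone for 23. The other 2 were the VIM site (both endogenous replicates and overexpressed HoxC5) and the SNAI2 site (endogenous replicate 1 and both overexpressed lists). Both endogenous sites were thus found again in the overexpressed HoxC5 list, as were 76.4% of all replicate 1 peaks and 85.3% of all replicate 2 peaks.

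The share of HoxC5 peaks that met Pbx4 at the 8 genes was close to that of the whole list. Of the 69 overexpressed HoxC5 peaks, 46 overlapped a Pbx4 peak (66.7%, 95% Clopper-Pearson interval 54.3 to 77.6%), against 67.7% of the whole list. In the other direction 44 of 155 Pbx4 peaks met HoxC5 (28.4%, 21.4 to 36.2%), against 28.5%. These intervals cover counting error only. Where 2 summits lay in overlapping peaks they were close, with a median of 46 bp between them at the 8 genes and 50 bp over the lists.

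The share of HoxC5 peaks that met Pbx4 was split by distance from the TSS. Within 1 kb of a canonical TSS, 3 of 12 HoxC5 peaks met Pbx4 (25%, 5.49 to 57.2%), and farther away 43 of 57 did (75.4%, 62.2 to 85.9%). The shares of the whole list were 33.4% and 74.7%. Pbx4 peaks ran the other way, with all 3 promoter peaks (29.2 to 100%) and 41 of the 152 farther away (27.0%, 20.1 to 34.8%) meeting HoxC5, against 61.2% and 27.2% of the whole list. The 9 promoter peaks of HoxC5 without Pbx4 were the 3 of TWIST1, 2 each of CDH2 and VIM, and 1 each of SNAI1 and ZEB1.

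Shared peaks had a higher median fold enrichment than the others. HoxC5 peaks that met Pbx4 had a median of 6.64 at the 8 genes and the rest 4.23, while the medians over the whole list were 6.61 and 5.63. For Pbx4 the medians were 7.66 with HoxC5 and 6.19 without, against 8.23 and 5.89. Over all peaks at the 8 genes the median was 6.09 for HoxC5, against 6.17 in the list, and 6.75 for Pbx4, against 6.36. The values ranged from 2.60 to 13.0 for HoxC5 and from 2.51 to 17.9 for Pbx4.

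The words at the summits of the 8 genes were about as frequent as in their lists. Within 50 bp of the summit the AP-1 word was found at 14 of 69 HoxC5 peaks (20.3%, 95% Clopper-Pearson interval 11.6 to 31.7%), against 20.5% of the list, and at 30 of 155 Pbx4 peaks (19.4%, 13.5 to 26.5%), against 18.5%. None of the 12 HoxC5 promoter peaks held it, against 3.02% of the list's peaks within 1 kb of any protein-coding gene's canonical TSS. The E-box was found at 5 HoxC5 peaks (7.25%, against 7.85%) and 13 Pbx4 peaks (8.39%, against 8.12%). This is the word to which the Snail and ZEB proteins themselves bind.

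The Meis word stood at 8 HoxC5 peaks (11.6%, 5.14 to 21.6%, against 7.88% of the list) and at 23 Pbx4 peaks (14.8%, 9.64 to 21.4%, against 10.4%). Both intervals include the share of the list. Some of these Meis words lay at sites shared by HoxC5 and Pbx4, so the counts of the lists are not separate readings. The Hox word TAATGA stood at 6 HoxC5 peaks (8.70%, against 8.41%) and 14 Pbx4 peaks (9.03%, against 7.61%). TAATTA was found at 0 of 69 HoxC5 and 2 of 155 Pbx4 peaks, TGATTGAT at 0 and 2, and TGATTAAT at 0 and 0. In the whole lists these words stood at 2.01%, 0.796% and 0.807% of HoxC5 peaks and 1.96%, 0.469% and 0.691% of Pbx4 peaks.

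**Figure D2:**
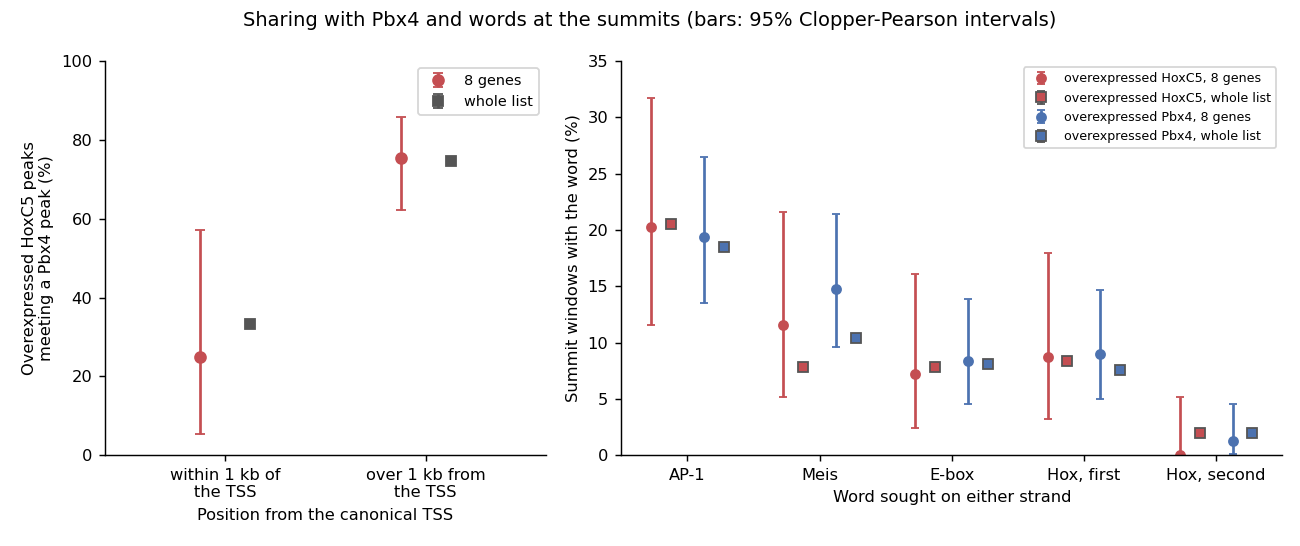
Left, share of overexpressed HoxC5 peaks that overlap a Pbx4 peak, by distance from the canonical TSS. That TSS is of the peak's own gene for the 8 genes and of any protein-coding gene for the whole list. Right, share of windows within 50 bp of the summit that hold each word (Hox, first is the TAATGA word and Hox, second the TAATTA word). Circles are the 8 genes, squares the whole list, and bars are 95% Clopper-Pearson intervals; every interval of the 8 genes in these plots includes the value of its list.

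Lists of other genes of the transition were read in the same way, 24 epithelial genes (junction proteins, keratins and their regulators) and 24 mesenchymal genes (matrix proteins, receptors and transcription factors). Against 88.4% and 93.5% of all protein-coding genes, all 24 epithelial genes had an overexpressed HoxC5 peak and all 24 a Pbx4 peak, as did 22 and 22 of the mesenchymal genes, with GSC and MMP2 lacking both. The median was 9 HoxC5 and 14 Pbx4 peaks per epithelial gene and 6.5 and 13 per mesenchymal gene. HoxC5 promoter peaks were found at 16 epithelial and 12 mesenchymal genes, where 49.4% of all protein-coding genes had one. Pbx4 promoter peaks were found at 9 and 5, against 28.1%. The most HoxC5 peaks were at TJP1 (32), a tight junction scaffold, and CD44 (20), a hyaluronan receptor, and the most Pbx4 peaks at GRHL2 (53), a regulator of epithelial genes, and TCF4 (34), an E-box factor. These counts are not scaled to the assigned stretch, which was 360 kb at TJP1, 180 kb at CD44, 244 kb at GRHL2 and 536 kb at TCF4.

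Endogenous replicate 1 had a peak at 6 of the epithelial genes (EPCAM, CLDN4, CTNND1, TJP1, KRT19 and CRB3) and 8 of the mesenchymal genes, among them S100A4, CD44, SNAI3 and SOX9, where 17.3% of all protein-coding genes had one. Replicate 2 had one at OVOL1 and one at SNAI3, against 1.48%. Of these genes SNAI3, a relative of Snail and Slug, had a peak in both replicates, 48.0 kb downstream of its TSS, with a fold enrichment of 9.43 in replicate 1 and 7.55 in replicate 2. That site counts to SNAI3 by the 50 kb rule only. Whether another gene starts nearer to it was not looked up, nor was it for the other peaks of these lists. CLDN4, which encodes a claudin of tight junctions, had the only endogenous promoter peak of both lists, in replicate 1, 375 bp downstream of its TSS with a fold enrichment of 4.86, where 2.56% of all protein-coding genes had one.

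The miR-200 microRNAs, which repress ZEB1 and ZEB2, come from 2 clusters. Around the cluster on chromosome 1 (MIR200A, MIR200B and MIR429) there were 2 endogenous replicate 1, 4 overexpressed HoxC5 and 7 Pbx4 peaks. Around that on chromosome 12 (MIR200C and MIR141) there were no endogenous peaks, 7 overexpressed HoxC5 peaks and 8 Pbx4 peaks. Replicate 2 had none at either cluster. For comparison, the median over all protein-coding genes was 4 overexpressed HoxC5 and 8 Pbx4 peaks. Of those genes, 17.3% had a peak of replicate 1 and 1.48% one of replicate 2.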

How the data were processed

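ChIP-Seq peak lists of 4 libraries were used, 1 list per library. Reads had been aligned by the authors to hg19 (BWA-MEM), filtered for mapping quality and freed of duplicates (SAMtools), and MACS2 had called peaks with a q-value limit of 0.05. The MACS2 version and the control of each call were not given in the sources used here. The deposited lists hold each peak's interval and summit, its fold enrichment, a ratio to local background, its p and q, both as −log10, and a score, which equals 10 times −log10 q without decimals. The depth of single libraries is unknown, so values were used within a list.

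Summits were compared with GENCODE 44 lifted to GRCh37, and peaks on other sequences than the main chromosomes (24 of overexpressed HoxC5 and 63 of Pbx4) were left out of positions and shares. Peaks met when they overlapped by at least 1 bp. Words were sought within 50 bp of summits. Shares carry exact 95% Clopper-Pearson intervals, and no test was run, since each overexpressed condition has 1 library. Every gene was named, with each endogenous peak, each promoter peak and the strongest peak by fold enrichment of each overexpressed list, the rest by counts. The 8 genes and the further gene lists were chosen with earlier results of these data known. The script was tested on simulated data. Alternatives were other distances, stricter q and fold limits, assignment by interval, 1 TSS per gene, a Pbx4 list as long as that of HoxC5, other overlap definitions and windows, and leaving out each endogenous replicate; the canonical transcript or TSS alone was chosen after seeing the data. The software was Python 3.11.15, pysam 0.24.0, scipy 1.17.1, pandas 2.3.3, numpy 2.4.6 and matplotlib 3.10.9.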

Additional observations from a re-analysis of the deposited data

How the results depend on the processing

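Counts moved with the distance, the fold limit and the length of the lists. Within 10 kb of a TSS in place of 50 kb, 43 overexpressed HoxC5 peaks remained at the 8 genes, and at a fold enrichment of at least 5 there were 44. At that fold limit endogenous replicate 1 had 0 peaks at 0 of the genes, so that its SNAI2 and VIM peaks rest on fold enrichments below 5, while the VIM peak of replicate 2 passed it. The median fold enrichment of the replicate 1 list was 4.98, just below that limit, and both of its peaks at the genes lay below the median. The median of the replicate 2 list was 6.23. Cut by q to the length of the HoxC5 list, the Pbx4 list had 73 peaks at the 8 genes, and the share of HoxC5 peaks that met Pbx4 was 52.2%, against 47.7% of the whole list. With the canonical TSS alone, 3 genes had a Pbx4 peak within 1 kb. Leaving out each endogenous replicate in turn left 1 to 2 endogenous sites, and the SNAI2 site is lost without replicate 1. Within 100 kb, ZEB2 gained 1 endogenous peak, in replicate 1. Of the other 60 checks of the main counts and shares, each stayed within 1.5 times or within its interval, as did 225 checks of single genes and words, while 35 moved further. No paired analysis was possible because no result comes from a test and each overexpressed condition has 1 library. The list cuts and unknown depths limit what a missing peak means: it was not called, and binding below the limit was not measured.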
